A study of Homo sapiens with 6 samples.

Results

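Mitochondrial ribosomal proteins are the nuclear-encoded proteins of the ribosome that works inside mitochondria. They were taken here as the protein-coding genes whose symbol is MRPL or MRPS followed by a digit, and this rule found 78 genes among the 20263 of the table. All 78 passed the filter on low counts, which kept 13769 genes. The counts of these 78 genes lay between 158 and 8492 in a library, with a median of 1514. They are spread over 21 chromosomes. MRPS36 carries such a symbol but its protein belongs to the oxoglutarate dehydrogenase complex, so it is described apart from the ribosomal genes.

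Mitochondria keep a small genome of their own, whose messenger RNAs encode core subunits of the respiratory chain. These messages are translated by a separate ribosome, which is built from ribosomal RNAs made in the organelle and from proteins made in the cytosol and imported. The proteins of its small (MRPS) and large (MRPL) subunits fall into those with a counterpart in bacterial ribosomes and those acquired in mitochondria. Heme made in mitochondria is used by some of the respiratory complexes that this ribosome serves.

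The study asked how HMOX1 may act on the proliferation of pancreatic cancer cells. HMOX1 is the gene of heme oxygenase-1, a stress-induced enzyme that breaks down heme. AsPC-1 cells, a human line from pancreatic ductal adenocarcinoma, were transfected with 1 of 2 siRNAs against HMOX1 (HMOX1si1 and HMOX1si2, 2 libraries each) or with a negative control siRNA (siControl, 2 libraries), and poly(A) RNA was sequenced. All groups are thus transfected cells of 1 line, with no untransfected group, and no label says that the replicates are separate cultures, so p-values measure the spread between these libraries, which may be technical.

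The libraries held 41151570 and 40737819 counts with HMOX1si1, 44139523 and 43878825 with HMOX1si2, and 36144330 and 45068660 with siControl. HMOX1 itself stood at 2.43 and 2.80 CPM (counts per 1000000 counts of the library, whose size was scaled by TMM) with HMOX1si1 and at 1.27 and 1.17 CPM with HMOX1si2, against 9.06 and 8.52 CPM with siControl. Both siRNAs thus lowered their target, by a log2 fold change of -1.75 ± 0.16 (SE) with HMOX1si1 (edgeR adjusted p = 0.00618) and of -2.85 ± 0.17 with HMOX1si2 (edgeR adjusted p = 0.00951). With 5 libraries these fold changes stayed between -1.85 and -1.65 and between -2.90 and -2.79, but the edgeR adjusted p was 0.0637 for HMOX1si1 without siControl replicate 2, and for HMOX1si2 was 0.0778 without siControl replicate 1 and 0.0960 without siControl replicate 2. All 6 markers of pancreatic ductal epithelium (KRT8, KRT18, KRT19, EPCAM, CDH1 and MUC1) were present in every library. Their summed level was 9341 and 9099 CPM with HMOX1si1 and 12893 and 13383 CPM with HMOX1si2, against 12967 and 14710 CPM with siControl. The sum hides markers that moved apart. In all 4 knockdown libraries KRT19 lay below both controls (average log2 fold change -0.51, edgeR adjusted p = 0.0200) and CDH1 above both (0.47, edgeR adjusted p = 0.0849). KRT8, KRT18 and KRT19 passed as lower with HMOX1si1, where 5.01% of all genes did, and 0 of the 6 markers passed with HMOX1si2. Markers of blood, stromal, endothelial, acinar and endocrine cells summed to 136 and 167 CPM with HMOX1si1 and to 135 and 100 CPM with HMOX1si2, against 93.0 and 96.9 CPM with siControl. CD68 made up most of that sum, and 2 to 5 of these 12 markers were at 0 in a library. The part of these differences in the results was not tested.

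In all 3 groups the messages of the mitochondrial ribosome were of moderate abundance and spanned a wide range. Per kilobase of transcript, the median of the 78 genes was 25.7 CPM per kilobase with HMOX1si1 and 25.3 with HMOX1si2, against 28.1 with siControl. MRPS24 and MRPS34, both of the small subunit, were among the most abundant. MRPS24 stood at 134 CPM per kilobase with HMOX1si1 and 151 with HMOX1si2, against 157 with siControl, and MRPS34 stood at 146 with HMOX1si1 and 155 with HMOX1si2, against 140 with siControl. MRPL28 reached 122 CPM per kilobase with HMOX1si1 and 137 with HMOX1si2, against 164 with siControl. MRPS6 and MRPL23, a protein that in bacteria lines the mouth of the exit tunnel, completed the 5 highest. At the low end stood MRPL42, MRPS33, MRPL50, MRPL19 and MRPS23. MRPL42 had 1.48 CPM per kilobase with HMOX1si1 and 1.56 with HMOX1si2, against 1.78 with siControl, a value that rests on an annotated transcript of 15582 bases. The other 4 lay between 4.30 and 6.84 CPM per kilobase in the 3 groups, and their order changed between groups, so these neighbours are not separated.

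**Figure D1:**
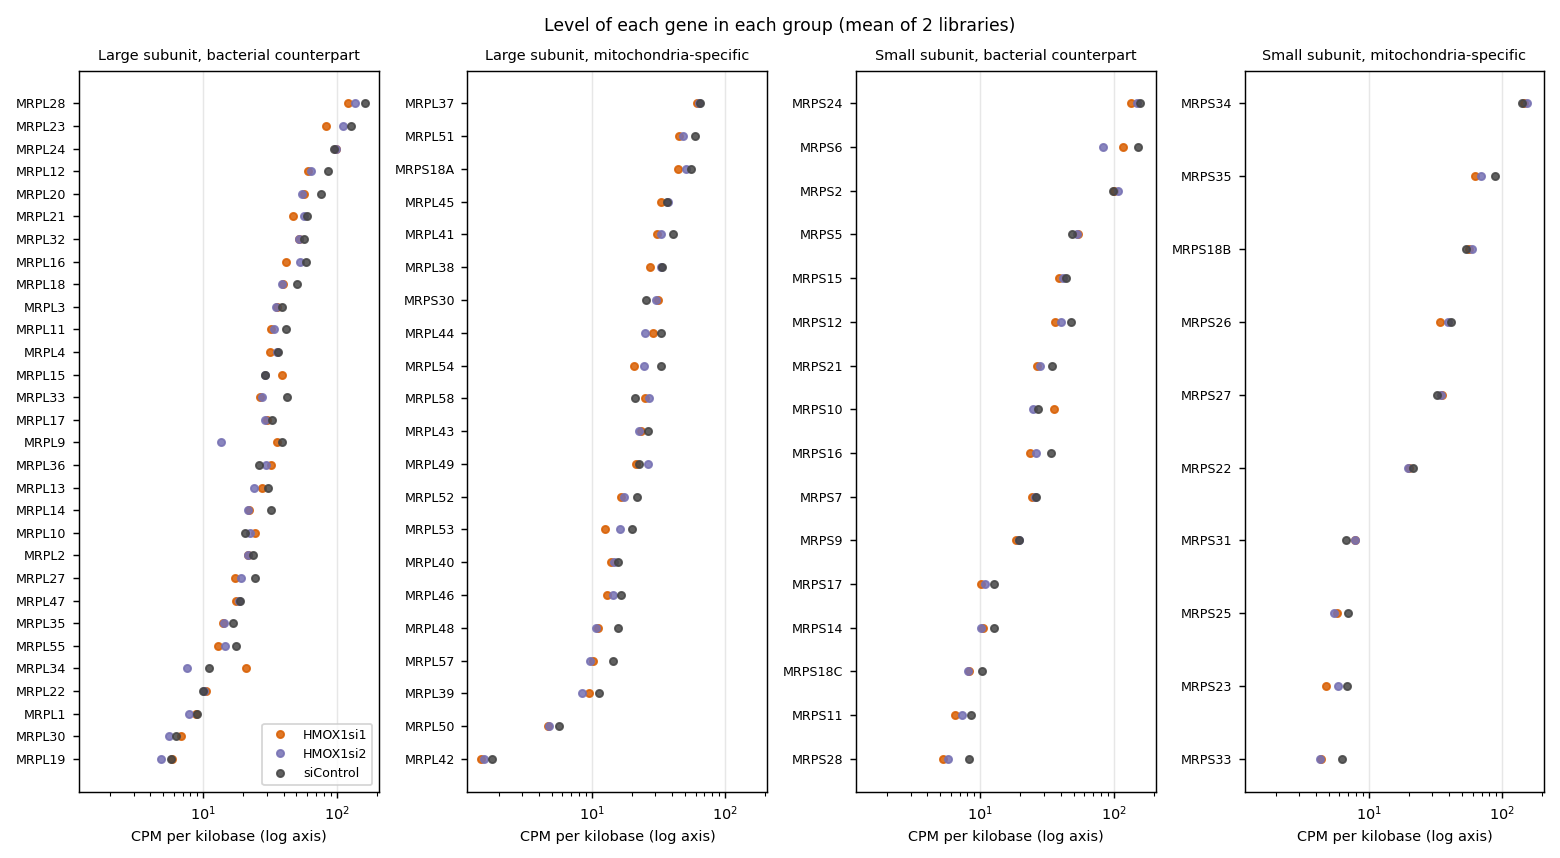
Level of the 77 ribosomal genes in each group, as CPM per kilobase of transcript on a log axis (mean of 2 libraries), split by subunit and by whether the protein has a bacterial counterpart; MRPS36 is left out. Points of the 3 groups lie close together for most genes, and MRPL9, MRPL34 and MRPS6 show the widest gaps between groups.

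Set against siControl, single genes of the mitochondrial ribosome seldom passed the test, while most of them were a little lower. With HMOX1si1, 3 of 78 genes passed an edgeR adjusted p of 0.05, 1 higher and 2 lower, where 10.0% of all genes tested passed (5.02% higher and 5.01% lower). With HMOX1si2, 3 of 78 passed, all 3 lower, where 5.73% of all genes passed (3.06% higher and 2.67% lower). On the average of both siRNAs, 4 of 78 passed, all 4 lower, where 10.1% of all genes passed (5.16% higher and 4.93% lower). Over both directions, these genes thus passed no more often than all genes tested. No gene passed as higher with HMOX1si2 or on average in edgeR. At an unadjusted p under 0.05, 4 of 78 were higher and 21 lower with HMOX1si1, and 0 higher and 14 lower with HMOX1si2. On average 1 was higher and 23 were lower. Of the 13769 genes tested, 2162 were higher and 2072 lower with HMOX1si1 at that cutoff. With HMOX1si2 1881 were higher and 1679 lower, and on average 2149 were higher and 2167 lower.

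DESeq2, run as an alternative, called more genes of the mitochondrial ribosome and more of all genes. With HMOX1si1 it called 3 higher and 10 lower, 13 of 78, where it called 19.2% of all genes (9.96% higher and 9.21% lower). With HMOX1si2 it called 0 higher and 6 lower, where it called 14.9% of all genes (7.72% higher and 7.16% lower). On average it called 0 higher and 13 lower, where it called 21.1% of all genes (10.9% higher and 10.2% lower). Lower calls in DESeq2 thus made up 13 of 78 genes on average, above the background share, and in edgeR 4 of 78, near it. The edgeR counts changed when a library was left out. All calls in these comparisons were lost without either siControl library and without either HMOX1si1 library. Without either HMOX1si2 library some were kept. The share of all genes called in these fits is not given, so counts of calls in them have no background. The fold changes of the called genes kept their sign in each of these fits.

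The median log2 fold change of the 78 genes was -0.26 with HMOX1si1 and -0.21 with HMOX1si2, beside medians of 0.00 over all genes tested. A value below 0 was found for 61 genes with HMOX1si1 (78.2%), where 50.1% of all genes tested lay below 0, and for 62 genes with HMOX1si2 (79.5%), where 49.8% did. These 2 comparisons share their siControl libraries. Each gene's difference from the siControl mean, taken in each library, had a median of -0.19 and -0.28 on the log2 scale in the HMOX1si1 libraries and of -0.27 and -0.10 in the HMOX1si2 libraries, against -0.06 and 0.06 in the siControl libraries. All 4 knockdown libraries thus lay below both siControl libraries, but HMOX1si2 replicate 2 stood nearest to them, at a distance from siControl replicate 1 that is smaller than the gap between the siControl libraries. Transcripts under 1024 bases moved alongside, over all genes tested, with medians of -0.22 and -0.36 in the HMOX1si1 libraries and of -0.29 and -0.16 in the HMOX1si2 libraries, against -0.09 and 0.09 in the siControl libraries. Their part in the lower values was not tested. The summed level of the 78 genes was 3500 and 3333 CPM with HMOX1si1 and 3334 and 3643 CPM with HMOX1si2, against 3758 and 4074 CPM with siControl. As each library holds the RNA of many cells, fewer cells with a transcript and less of it per cell cannot be told apart.

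**Figure D2:**
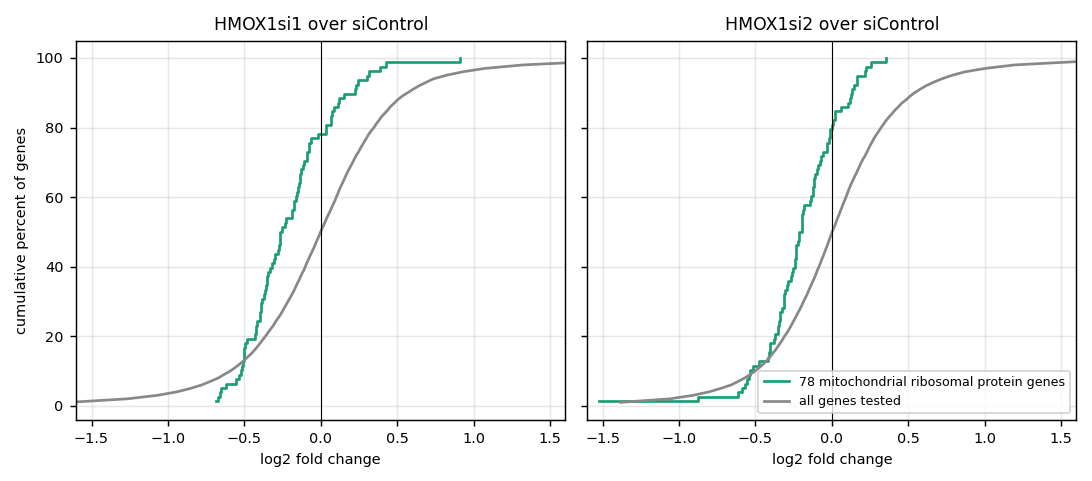
Cumulative percent of genes (vertical axis) by log2 fold change (horizontal axis), for HMOX1si1 over siControl on the left and HMOX1si2 over siControl on the right. The line of the 78 mitochondrial ribosomal protein genes crosses 0 at 78.2% and 79.5%, and that of all genes tested at 50.1% and 49.8%; a few genes lie beyond the axis limits.

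In 34 of the 78 genes all 4 knockdown libraries lay below both siControl libraries, where this held for 18.2% of all genes tested. In 6 genes all 4 lay above both, where this held for 18.7% of all genes, and in the other 38 the libraries overlapped. The 6 genes, named here because of that count, were MRPS5, MRPS18B, MRPS27 and MRPS31 of the small subunit and MRPS30 and MRPL58 of the large subunit. MRPL58 is a peptidyl-tRNA hydrolase that became a part of the large subunit. It had 22.5 and 21.9 CPM with HMOX1si1 and 24.5 and 23.5 CPM with HMOX1si2, against 16.3 and 21.2 CPM with siControl. No gene of the 6 passed the test on average, with log2 fold changes of 0.11 to 0.30 and edgeR adjusted p of 0.136 or more.

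Of the 8 genes that passed in any comparison, 6 encode proteins of the large subunit, to which 51 of the 78 genes belong. MRPL57, a large-subunit protein without a bacterial counterpart, was the one gene that passed with each siRNA alone and on average. It had 23.4 and 22.2 CPM with HMOX1si1 and 20.9 and 22.5 CPM with HMOX1si2, against 30.8 and 34.2 CPM with siControl. The 4 knockdown libraries lay close together and well below both controls. Its log2 fold change was -0.51 ± 0.11 (SE) with HMOX1si1 (edgeR adjusted p = 0.0406), -0.59 ± 0.11 with HMOX1si2 (edgeR adjusted p = 0.0400) and -0.55 ± 0.09 on average (edgeR adjusted p = 0.0250). The gene lies at chr13:21176645-21179084 on the plus strand (GRCh38, GENCODE 29) and shares no exon with another gene, but 5 pseudogenes in that annotation are named after it. When 1 library was left out, its average log2 fold change lay between -0.63 and -0.47, and it passed only without HMOX1si2 replicate 2 (edgeR adjusted p of 0.0343 to 0.172).

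MRPL20 and MRPL48 passed only on the average of both siRNAs. MRPL20, whose counterpart in Escherichia coli binds the ribosomal RNA early in the assembly of the large subunit, had 42.5 and 39.8 CPM with HMOX1si1 and 38.5 and 40.7 CPM with HMOX1si2, against 51.4 and 58.7 CPM with siControl. Its libraries did not overlap between knockdown and control, and its log2 fold change was -0.45 ± 0.09 (edgeR adjusted p = 0.0370). MRPL48, a large-subunit protein acquired in mitochondria, had 16.4 and 18.0 CPM with HMOX1si1 and 15.9 and 17.3 CPM with HMOX1si2, against 22.4 and 26.2 CPM with siControl. The groups again did not overlap, and the log2 fold change was -0.52 ± 0.11 (edgeR adjusted p = 0.0419). When 1 library was left out, these values lay between -0.55 and -0.34 for MRPL20 and between -0.63 and -0.40 for MRPL48, and both genes passed only without HMOX1si2 replicate 2. MRPL20 lies at chr1:1401908-1407313 on the minus strand and MRPL48 at chr11:73787316-73865133 on the plus strand.

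MRPS6, whose counterpart in Escherichia coli pairs with protein S18 on the platform of the small subunit, passed with HMOX1si2 and on average. It had 124 and 109 CPM with HMOX1si1 and 70.6 and 93.0 CPM with HMOX1si2, against 139 and 160 CPM with siControl. Both siRNAs gave lower values than siControl, the lower ones with HMOX1si2. The log2 fold change was -0.87 ± 0.16 with HMOX1si2 (edgeR adjusted p = 0.0388), -0.37 ± 0.16 with HMOX1si1 (edgeR adjusted p = 0.182) and -0.62 ± 0.14 on average (edgeR adjusted p = 0.0437). MRPS6 lies at chr21:34073224-34143034 on the plus strand, where SLC5A3, a myo-inositol transporter gene, shares exon sequence with it on the same strand. SLC5A3 had 194 and 168 CPM with HMOX1si1 and 146 and 163 CPM with HMOX1si2, against 317 and 238 CPM with siControl, so the level of either gene may hold reads of the other. With 1 library left out, the average of MRPS6 lay between -0.73 and -0.51 and passed only without HMOX1si2 replicate 2 (edgeR adjusted p of 0.0280 to 0.250).

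The promoters of the 4 genes that were lower on average are shown with that of MRPS10, the one gene called higher, because nuclear genes for mitochondrial proteins are known for binding sites of GABPA, NRF1 and YY1 near their start. Each run holds 250 bases before and 50 after the gene's start in RefSeq (GRCh38.p14), read 5′ to 3′ on the gene's strand. Capitals mark matches on either strand to CCGGAAG, a core of GABPA and other ETS factors, and to AAGATGGCG of YY1. The windows are chr13:21176408-21176707 (plus strand) for MRPL57, chr1:1407244-1407543 (minus) for MRPL20, chr11:73787624-73787923 (plus) for MRPL48, chr21:34073328-34073627 (plus) for MRPS6 and chr6:42217812-42218111 (minus) for MRPS10.
MRPL57: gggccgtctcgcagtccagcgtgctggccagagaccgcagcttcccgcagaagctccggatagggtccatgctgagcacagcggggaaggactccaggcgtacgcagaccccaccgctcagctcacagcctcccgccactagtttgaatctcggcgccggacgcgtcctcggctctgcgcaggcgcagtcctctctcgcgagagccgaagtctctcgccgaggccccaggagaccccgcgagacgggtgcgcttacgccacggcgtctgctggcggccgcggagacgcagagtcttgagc
MRPL20: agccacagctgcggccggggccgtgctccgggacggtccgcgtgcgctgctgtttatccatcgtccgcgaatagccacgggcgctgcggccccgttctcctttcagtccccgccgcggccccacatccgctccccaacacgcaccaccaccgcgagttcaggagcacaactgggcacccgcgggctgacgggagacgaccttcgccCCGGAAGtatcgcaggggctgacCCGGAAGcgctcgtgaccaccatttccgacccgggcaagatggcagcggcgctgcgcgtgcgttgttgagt
MRPL48: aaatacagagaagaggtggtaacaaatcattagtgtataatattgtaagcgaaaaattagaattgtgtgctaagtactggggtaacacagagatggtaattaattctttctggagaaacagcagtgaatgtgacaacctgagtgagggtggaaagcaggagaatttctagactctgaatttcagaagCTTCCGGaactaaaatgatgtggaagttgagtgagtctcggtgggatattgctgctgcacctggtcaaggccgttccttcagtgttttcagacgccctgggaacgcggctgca
MRPS6: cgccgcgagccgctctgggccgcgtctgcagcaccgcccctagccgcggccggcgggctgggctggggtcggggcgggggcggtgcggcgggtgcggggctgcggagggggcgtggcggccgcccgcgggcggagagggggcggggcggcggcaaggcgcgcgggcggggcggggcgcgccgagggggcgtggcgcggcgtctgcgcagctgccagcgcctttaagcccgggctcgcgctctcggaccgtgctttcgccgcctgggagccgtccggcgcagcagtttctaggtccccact
MRPS10: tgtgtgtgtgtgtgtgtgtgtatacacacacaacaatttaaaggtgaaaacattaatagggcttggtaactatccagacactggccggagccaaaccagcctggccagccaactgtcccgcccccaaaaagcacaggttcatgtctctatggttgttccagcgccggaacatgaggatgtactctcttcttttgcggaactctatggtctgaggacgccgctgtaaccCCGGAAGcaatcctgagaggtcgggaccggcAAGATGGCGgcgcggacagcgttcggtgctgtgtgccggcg
MRPL20 holds 2 matches to the ETS core and MRPL48 and MRPS10 hold 1 each, MRPS10 also holds 1 match to the YY1 motif, and no match was found in the windows of MRPL57 and MRPS6.

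A promoter entry was found for 69 of the 78 genes. The ETS core was in 30 of them (43.5%), where 21.4% of the 10913 tested genes with an entry held it. The YY1 motif was in 13 (18.8%), where 4.46% of all genes held it, and GCATGCGC of NRF1 was in 6 (8.70%), where 6.02% did. The median log2 fold change on average was -0.33 for the 30 genes with the ETS core and -0.14 for those without it, beside medians of 0.00 and 0.01 over all genes with and without it. For the YY1 motif the medians were -0.14 with it and -0.31 without it, beside 0.05 and 0.00 over all genes. For the NRF1 motif they were -0.14 with it and -0.26 without it, beside -0.03 and 0.01 over all genes. These are descriptions of short windows, and a match is not a shown site.

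MRPL16 passed with HMOX1si1 alone. Its counterpart in bacteria lies near the tRNA sites of the large subunit. It had 51.5 and 47.5 CPM with HMOX1si1 and 59.4 and 67.3 CPM with HMOX1si2, against 67.6 and 72.4 CPM with siControl. The HMOX1si1 libraries lay apart from the other 4, and HMOX1si2 replicate 2 came close to a control. The log2 fold change was -0.50 ± 0.11 with HMOX1si1 (edgeR adjusted p = 0.0406) and -0.14 ± 0.11 with HMOX1si2 (edgeR adjusted p = 0.428). Its value with HMOX1si1 lay between -0.56 and -0.44 when 1 library was left out, and passed only without an HMOX1si2 library (edgeR adjusted p of 0.0424 to 0.225). MRPL16 lies at chr11:59806135-59810872 on the minus strand.

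MRPL9 passed with HMOX1si2 alone and had the largest fold change against siControl of the 78 genes. Its bacterial counterpart is an elongated protein at the base of the L1 stalk. It had 53.3 and 39.6 CPM with HMOX1si1 and 20.1 and 15.3 CPM with HMOX1si2, against 38.6 and 63.2 CPM with siControl. Both HMOX1si2 libraries lay below all others, whereas the HMOX1si1 libraries lay within the range of the controls. The log2 fold change was -1.52 ± 0.28 with HMOX1si2 (edgeR adjusted p = 0.0388) and -0.13 ± 0.27 with HMOX1si1 (edgeR adjusted p = 0.769). With any 1 library left out, the value with HMOX1si2 lay between -1.84 and -1.12 and did not pass (edgeR adjusted p of 0.0562 to 0.165). MRPL9 lies at chr1:151759643-151763564 on the minus strand and shares exon sequence with OAZ3 on the opposite strand, which stood at or below 1.28 CPM in all libraries.

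MRPS10 was the one gene that passed as higher. It encodes a protein of the small-subunit head whose counterpart in Escherichia coli also acts in transcription antitermination. It had 74.6 and 75.5 CPM with HMOX1si1 and 53.2 and 52.4 CPM with HMOX1si2, against 57.3 and 57.7 CPM with siControl. The replicates of each group lay close together, and the HMOX1si1 libraries stood above and the HMOX1si2 libraries below the controls. The log2 fold change was 0.39 ± 0.08 with HMOX1si1 (edgeR adjusted p = 0.0414) and -0.12 ± 0.08 with HMOX1si2 (edgeR adjusted p = 0.389). With any 1 library left out, the value with HMOX1si1 lay between 0.38 and 0.40 and did not pass (edgeR adjusted p of 0.0546 to 0.223). The gene lies at chr6:42206801-42217865 on the minus strand.

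**Figure D3:**
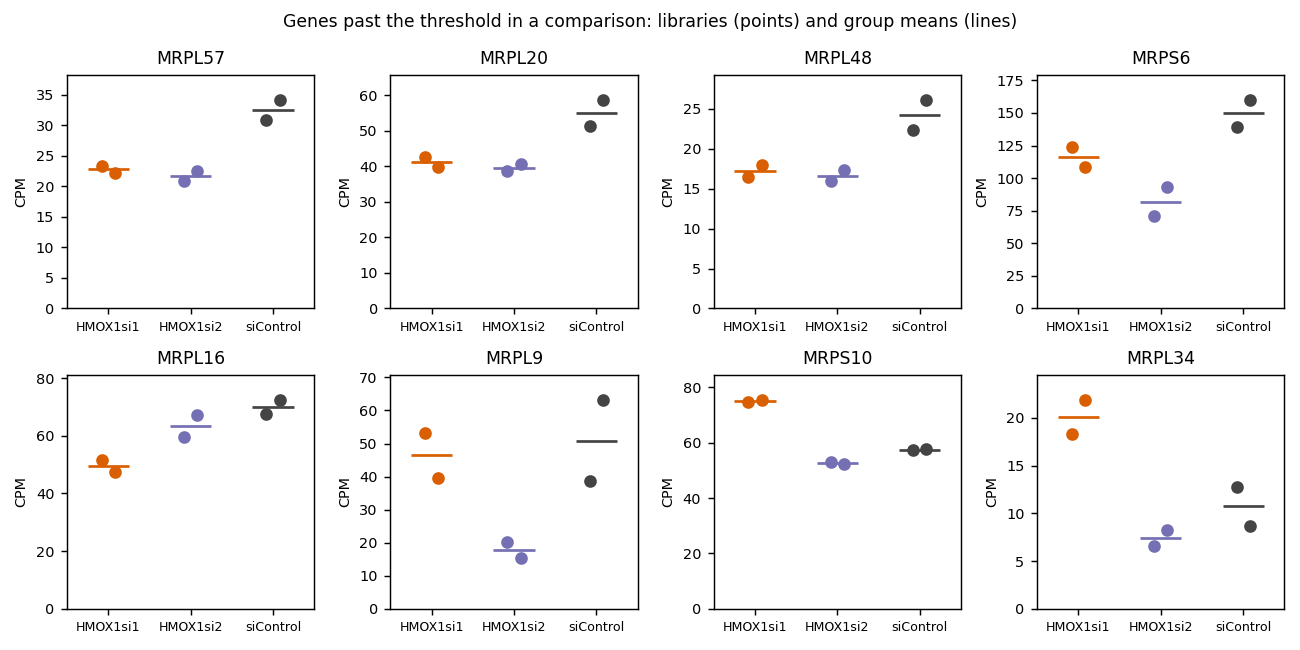
CPM of the 8 genes that passed the threshold in any comparison, with 1 point per library and a line at the mean of each group (2 libraries each; each panel has its own axis from 0). In MRPL57, MRPL20, MRPL48, MRPS6 and MRPL16 all 4 knockdown points lie below both siControl points, in MRPL9 the HMOX1si2 points do, and in MRPS10 the HMOX1si1 points lie above them.

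The effects of the siRNAs were also set against each other directly, as HMOX1si2 minus HMOX1si1. In this test 2 of 78 genes passed, both lower with HMOX1si2, where 3.62% of all genes passed (2.14% higher and 1.49% lower). DESeq2 called 0 higher and 4 lower, where it called 10.7% of all genes (5.49% higher and 5.18% lower). MRPL34, a small basic protein of the large subunit, had 6.55 and 8.20 CPM with HMOX1si2, against 18.3 and 21.9 CPM with HMOX1si1, and siControl had 12.8 and 8.65 CPM. The groups of the 2 siRNAs did not overlap, and HMOX1si1 stood above both controls and HMOX1si2 below both. The difference was -1.45 ± 0.23 on the log2 scale (edgeR adjusted p = 0.0331), though neither siRNA passed against siControl, with 0.91 ± 0.23 for HMOX1si1 (edgeR adjusted p = 0.0592) and -0.54 ± 0.23 for HMOX1si2 (edgeR adjusted p = 0.208). MRPL34 lies at chr19:17292609-17306843 on the plus strand and shares exon sequence with ABHD8 on the opposite strand. ABHD8 had 11.8 and 12.2 CPM with HMOX1si2, against 13.5 and 13.8 CPM with HMOX1si1, a far smaller gap. The second gene was MRPS10, with a difference of -0.51 ± 0.08 (edgeR adjusted p = 0.0345). Both calls were lost in edgeR when any 1 of the 6 libraries was left out. The median difference of the 78 genes was 0.06, and 32 of them (41.0%) lay below 0, where 49.5% of all genes did. This median was -0.05 without HMOX1si2 replicate 2.

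By structure, all 4 classes of ribosomal gene had medians below 0, and differences between the classes were not tested. Over all genes tested, 50.5% lay below 0 on average, and 18.2% had all knockdown libraries below both controls. For the 16 small-subunit proteins with a bacterial counterpart the median log2 fold change on average was -0.29, and 13 lay below 0. In this class 7 genes had all knockdown libraries below both controls, among them MRPS28 and MRPS16. MRPS16 had 67.1 and 57.5 CPM with HMOX1si1 and 57.4 and 79.3 CPM with HMOX1si2, against 87.6 and 90.4 CPM with siControl (edgeR adjusted p on average 0.0996). MRPS28 was low in level, at 4.91 and 3.95 CPM with HMOX1si1 and 4.03 and 5.77 CPM with HMOX1si2, against 6.85 and 7.17 CPM with siControl (edgeR adjusted p on average 0.0923).

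For the 10 small-subunit proteins acquired in mitochondria the median was -0.14, with 6 below 0, and became 0.01 under a scaling by transcript length that was added after the data were seen. In this class MRPS22, MRPS25 and MRPS33 had all knockdown libraries below both controls, whereas MRPS18B, MRPS27 and MRPS31 had all 4 above. Of all genes tested, 18.2% lay fully below and 18.7% fully above both controls. Such small counts are not read as a trait of the class. MRPS33 had 18.5 CPM in both libraries with HMOX1si1 and 17.0 and 19.5 CPM with HMOX1si2, against 22.0 and 31.6 CPM with siControl (edgeR adjusted p on average 0.0813). MRPS35 overlapped between groups, with 135 and 101 CPM with HMOX1si1 and 104 and 160 CPM with HMOX1si2, against 177 and 153 CPM with siControl.

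The 30 large-subunit proteins with a bacterial counterpart had a median of -0.19, with 24 below 0 and 14 fully below both controls. Of all genes tested, 50.5% lay below 0 on average and 18.2% fully below both controls. MRPL12, which recruits translation factors through the ribosomal stalk and also binds the mitochondrial RNA polymerase in human cells, had 68.2 and 57.2 CPM with HMOX1si1 and 60.6 and 72.2 CPM with HMOX1si2, against 85.7 and 91.6 CPM with siControl. Its groups did not overlap, but its log2 fold change of -0.46 ± 0.11 on average missed the threshold (edgeR adjusted p = 0.0574). MRPL33 was likewise lower in every knockdown library, with a log2 fold change of -0.64 ± 0.17 that did not pass (edgeR adjusted p = 0.0674). The 21 large-subunit proteins acquired in mitochondria had a median of -0.26, with 18 below 0 and 9 fully below both controls. MRPS30, which sits in the large subunit despite its name, went the other way, at 48.7 and 57.1 CPM with HMOX1si1 and 54.7 and 47.2 CPM with HMOX1si2, against 41.8 and 43.3 CPM with siControl (log2 fold change 0.29 ± 0.11, edgeR adjusted p = 0.136). MRPS36, the gene outside the ribosome, had a log2 fold change of -0.31 ± 0.15 on average (edgeR adjusted p = 0.219).

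**Figure D4:**
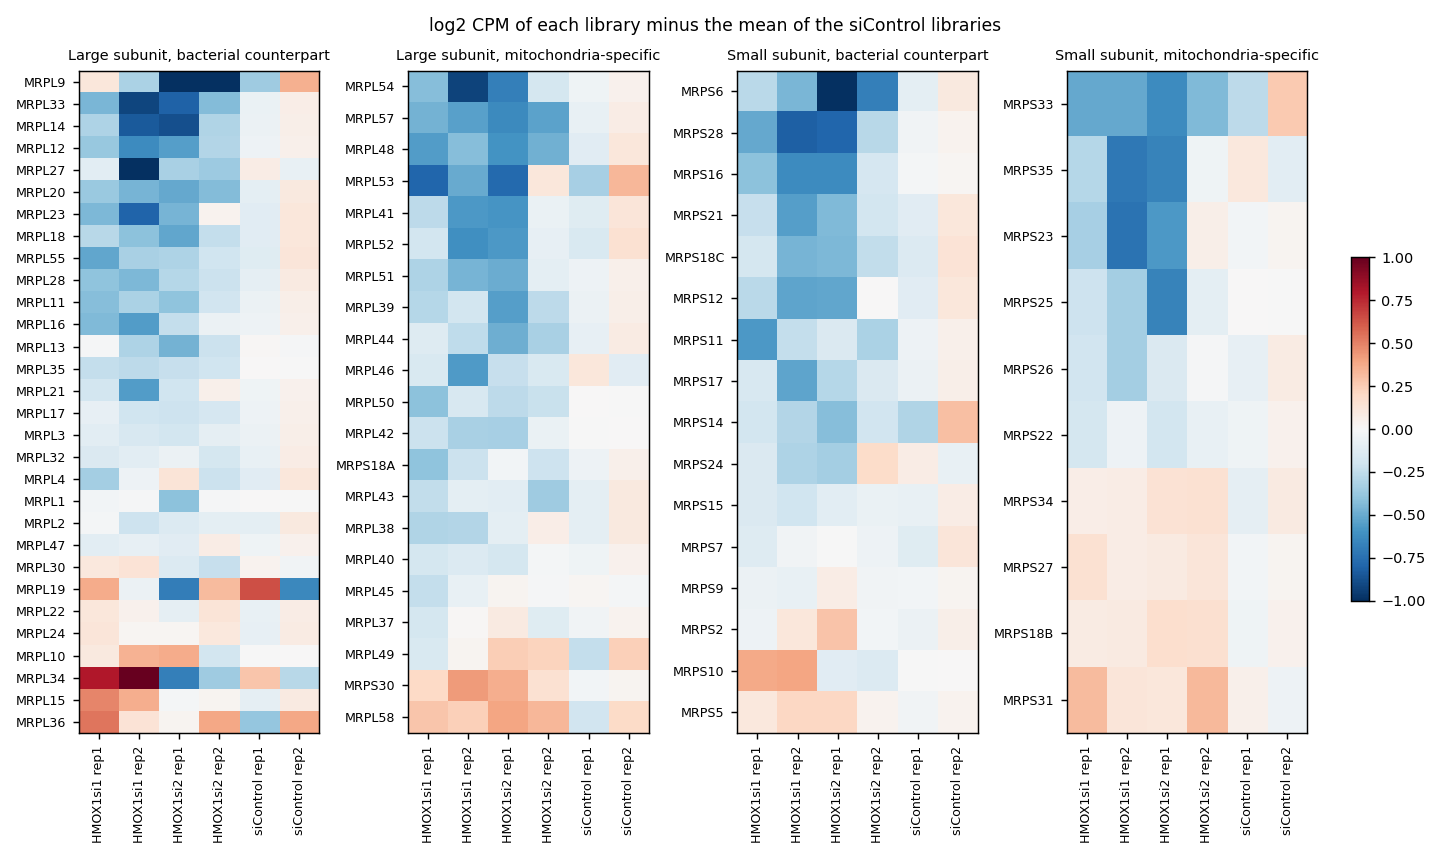
Difference of each library from the mean of the siControl libraries (log2 CPM, colour; blue is lower and red higher, colours end at -1 and 1) for the 77 ribosomal genes, split by class and sorted by the mean of the 4 knockdown libraries. Over all 78 genes the median difference is -0.19 and -0.28 in the HMOX1si1 columns and -0.27 and -0.10 in the HMOX1si2 columns, against -0.06 and 0.06 in the siControl columns, and each class holds both blue and red genes.

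Single genes also differed between replicates. The median absolute gap between the 2 libraries of a group over the 78 genes was 0.16 on the log2 scale with HMOX1si1, 0.21 with HMOX1si2 and 0.14 with siControl, and over all genes tested it was 0.15, 0.19 and 0.16 in the same order. The widest was that of MRPL19, which had 23.2 and 17.2 CPM with HMOX1si1 and 11.1 and 22.5 CPM with HMOX1si2, against 28.2 and 11.5 CPM with siControl. This gene shares exon sequence with GCFC2, and 33 of the 78 genes share exon sequence with another gene. A further limit is that 34 of the 78 have pseudogenes named after them, 75 pseudogenes in all, between which reads could be divided.

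Transcript length moved with the result. The 78 genes have short messages, with a median annotated length of 1430.5 bases, where all genes tested have 2982. Within each knockdown library, the difference from the siControl mean had a Spearman correlation with length over all genes of 0.25 and 0.28 with HMOX1si1 and of 0.26 and 0.18 with HMOX1si2. Over 13753 genes tested that have a length, shorter transcripts had lower fold changes, with a Spearman correlation of 0.29 between length and the average log2 fold change, and over the 78 genes it was 0.16. Genes are not independent replicates, and these are descriptions. In transcripts of over 1000 and up to 1500 bases the 30 genes of the mitochondrial ribosome had a median of -0.23, and all 1232 genes tested of that length had -0.17. In those of over 1500 and up to 2500 bases the 21 genes had a median of -0.14 and all genes had -0.08. The 11 genes over 700 and up to 1000 bases had -0.41, beside -0.25 for all genes of that length. The largest gap was in the longest class, over 4000 bases, with -0.34 for only 4 genes and 0.12 for all. On the average of both siRNAs, the medians of the mitochondrial ribosomal genes were below those of all genes in each of 6 length classes. Of these classes 4 hold fewer than 20 of them. With HMOX1si2 alone this did not hold up to 700 bases, where 4 genes had a median of -0.241 and all genes -0.245.

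**Figure D5:**
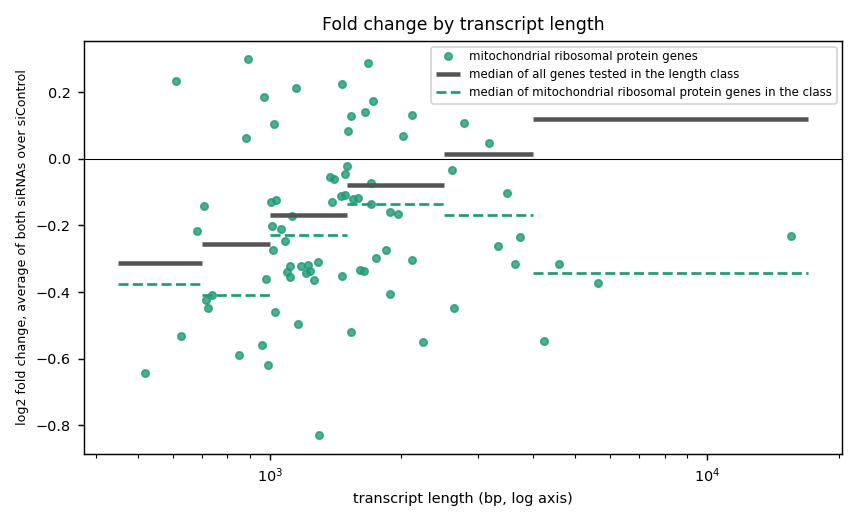
Average log2 fold change of both siRNAs over siControl (vertical axis) by annotated transcript length (bases, log axis) for the 78 genes. Grey lines are medians of all genes tested in 6 length classes and run between -0.31 and 0.12; dashed green lines are medians of the 78 genes in those classes.

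With the trend by length removed within each library, an alternative added after the data were seen, the median of the 78 genes was -0.07 with HMOX1si1 and -0.10 with HMOX1si2. Of the 78 genes 46 and 49 lay below 0, where 6805 and 6794 of all 13769 genes tested did. Without this scaling the medians were -0.26 and -0.21, with 61 and 62 of the 78 below 0. The medians thus kept their sign but moved much of the way towards 0. Under this scaling 4 genes were called higher with HMOX1si1 (MRPL15, MRPL24, MRPL34 and MRPS10) and 1 lower (MRPL57), where 11.1% of all genes were called (5.51% higher and 5.61% lower). On average 3 were called higher (MRPL15, MRPL24 and MRPL58) and 2 lower (MRPL57 and MRPS6), where 10.7% of all genes were called (5.22% higher and 5.51% lower), so that the split of 0 higher and 4 lower changed. MRPL57 remained lower, at a log2 fold change of -0.50 on average (edgeR adjusted p = 0.0219), and so did MRPS6, at -0.41 (edgeR adjusted p = 0.0462). MRPL20 and MRPL48 lost their calls, at -0.18 (edgeR adjusted p = 0.147) and -0.39 (edgeR adjusted p = 0.0578). Whether length has a part in the lower values was not tested.

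Other short, nuclear-encoded messages of the ribosomes and the respiratory chain had medians below 0 too. The 79 tested genes of the cytosolic ribosome had medians of -0.43 with HMOX1si1 and -0.25 with HMOX1si2, and the 37 NDUF genes of complex I had medians of -0.44 and -0.30. Their median transcript lengths were 1017 and 958 bases. On average 4 of 79 genes of the cytosolic ribosome and 4 of 37 NDUF genes passed, all lower. Of the mitochondrial ribosome 4 of 78 did, and 4.93% of all genes tested passed as lower. DESeq2 called 25 cytosolic ribosomal and 14 NDUF genes lower on average, and 0 and 1 higher. It called 13 of the 78 genes and 10.2% of all genes lower. On average 97.5% of the cytosolic ribosomal and 97.3% of the NDUF genes lay below 0, beside 79.5% of the 78 genes and 50.5% of all genes. Differences between these lists were not tested.

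Genes that work with the mitochondrial ribosome were described from further lists. Of the 5 ribosomal proteins with other symbols, none passed in edgeR in any comparison. The 2 with the smallest p were CHCHD1 and AURKAIP1, both of the small subunit, which were lower at an unadjusted p under 0.05 and which DESeq2 called lower on average. CHCHD1 had 22.6 and 17.7 CPM with HMOX1si1 and 19.4 and 25.3 CPM with HMOX1si2, against 28.8 and 32.4 CPM with siControl (edgeR adjusted p on average 0.0847). Of the 25 assembly and ribosomal RNA modification factors, 2 passed as lower and 0 as higher in each of the 3 comparisons with siControl, and the median on average was -0.11. Of all genes tested, 5.01% passed as lower with HMOX1si1, 2.67% with HMOX1si2 and 4.93% on average. In each of these comparisons 0 of the 25 were higher and 5 lower at an unadjusted p under 0.05. Of the 13769 genes tested, 2072, 1679 and 2167 were lower at that cutoff, in the same order. DESeq2 called 0 of the 25 higher, and 3, 4 and 5 lower, where it called 9.21%, 7.16% and 10.2% of all genes lower.

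MRM2, a methyltransferase of the large ribosomal RNA, was lower on average. It had 25.1 and 23.1 CPM with HMOX1si1 and 25.9 and 26.5 CPM with HMOX1si2, against 44.5 and 33.1 CPM with siControl (log2 fold change -0.63 ± 0.13, edgeR adjusted p = 0.0410). All knockdown libraries lay below both controls. MPV17L2, an assembly factor of the large subunit, had 14.7 and 13.9 CPM with HMOX1si1 and 11.6 and 12.1 CPM with HMOX1si2, against 17.1 and 18.9 CPM with siControl (log2 fold change -0.47 ± 0.10, edgeR adjusted p = 0.0437). Under the scaling by transcript length the average calls of MRM2 (edgeR adjusted p = 0.0823) and MPV17L2 (edgeR adjusted p = 0.0719) were lost. C1QBP, an acidic matrix protein that supports mitochondrial translation, passed with HMOX1si2 (log2 fold change -0.66 ± 0.13, edgeR adjusted p = 0.0472). RPUSD4, a pseudouridine synthase of the large ribosomal RNA, passed as lower with HMOX1si1 (log2 fold change -0.63 ± 0.14, edgeR adjusted p = 0.0443). It differed between the siRNAs, with 72.9 and 92.0 CPM with HMOX1si2, against 47.6 and 42.1 CPM with HMOX1si1, and siControl had 67.3 and 71.2 CPM.

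Lower calls made up 5.01% of all genes tested with HMOX1si1, 2.67% with HMOX1si2 and 4.93% on average. Among 16 translation factors and related proteins, GFM1 alone passed, the elongation factor that moves tRNAs and messages along the mitochondrial ribosome. It had 47.8 and 45.0 CPM with HMOX1si1 and 34.8 and 37.6 CPM with HMOX1si2, against 57.5 and 50.6 CPM with siControl. The groups did not overlap, with a log2 fold change of -0.58 ± 0.11 with HMOX1si2 (edgeR adjusted p = 0.0394) and -0.40 ± 0.09 on average (edgeR adjusted p = 0.0486). Of 8 genes of mitochondrial transcription, TFAM alone passed, the protein that packages mitochondrial DNA and starts its transcription. It had 21.4 and 19.2 CPM with HMOX1si1 and 32.8 and 42.3 CPM with HMOX1si2, against 48.1 and 41.3 CPM with siControl. The HMOX1si1 libraries were below all others (log2 fold change -1.14 ± 0.16, edgeR adjusted p = 0.0151). HMOX1si2 reached into the range of the controls (log2 fold change -0.25 ± 0.16, edgeR adjusted p = 0.350). On average TFAM passed too, with a log2 fold change of -0.70 ± 0.13 (edgeR adjusted p = 0.0324).

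Of the 9 regulators of mitochondrial biogenesis, 8 were tested and none passed in edgeR. On average 2 were higher and 0 lower at an unadjusted p under 0.05, where 2149 and 2167 of the 13769 genes tested were. DESeq2 called 1 higher, where it called 10.9% of all genes higher. YY1 had 226 and 189 CPM with HMOX1si1 and 246 and 231 CPM with HMOX1si2, against 187 and 153 CPM with siControl (edgeR adjusted p on average 0.0957). PPRC1, a coactivator of the PGC-1 family, had 64.2 and 78.4 CPM with HMOX1si1 and 81.2 and 67.1 CPM with HMOX1si2, against 59.7 and 56.1 CPM with siControl (edgeR adjusted p on average 0.140).

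The messages that the mitochondrial ribosome translates are encoded in the mitochondrial genome. None of these 13 mRNAs passed in edgeR in any comparison, 0 had an unadjusted p under 0.05, DESeq2 called 0, and their median log2 fold change on average was 0.03. Under the scaling by transcript length the medians of the 13 mRNAs were 0.32 with HMOX1si1, 0.24 with HMOX1si2 and 0.25 on average. There 0 of the 13 lay below 0 in these comparisons, with edgeR adjusted p of 0.363 or more on average. Their summed level was 58390 and 82803 CPM with HMOX1si1 and 85257 and 49469 CPM with HMOX1si2, against 64172 and 73065 CPM with siControl. Replicates of each siRNA differed more than the groups did. MT-ND5, a core subunit of complex I, had a log2 fold change of 0.16 ± 0.26 on average and MT-ND4 of -0.11 ± 0.25. With errors of this size a shift of the extent seen in the 78 nuclear genes was not detectable for single mitochondrial messages.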

How the data were processed

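The values used are expected counts, that is, estimated counts of each gene, in a table made and deposited by the authors, a unit read from the values because the labels do not state it. All values were whole, so rounding changed nothing, and 71.9% of values from 1 to 10 were even, where 49.9% of those over 100 were, so how the counts were made is not known. The alignment and counting tools were not given in the sources used here, and the mouse builds GRCm38 and mm10 are named in the submitters' processing notes, although all identifiers are of human genes. Whether counting used strand is not known, so overlapping genes on opposite strands may share reads. The table had 0 unused sample columns.

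Groups were taken from the sample titles. Gene types, coordinates, exon overlaps and transcript lengths came from GENCODE 29 (GRCh38), which held 20224 of the 20263 identifiers, with 1 transcript per gene (APPRIS principal, then support level, then length). Promoters came from RefSeq (GRCh38.p14). The software was edgeR 4.0.16 in R 4.3.3 and, as an alternative, DESeq2 1.42.0. The edgeR quasi-likelihood test (glmQLFit, glmQLFTest) was run on genes kept by filterByExpr, with TMM scaling and a mean for each group, on the 6 libraries together. It compared HMOX1si1, HMOX1si2 and the average of both with siControl, and HMOX1si2 with HMOX1si1, with Benjamini-Hochberg adjustment over all genes tested and a threshold of 0.05. Standard errors were derived from the log2 fold change and the F statistic (size over root of F). The fit had a common coefficient of biological variation of 0.165 and 3.11 prior degrees of freedom. Log2 CPM used a prior count of 2. The fit was tested on simulated data for the average of both siRNAs, with 13769 genes. It recovered 20% of 100 genes with a true log2 change of 0.5 in size and 73% of 100 genes with a change of 1. It also called 7 unchanged genes. In this simulation changes of 0.5 were thus mostly missed for single genes. On average 1389 genes were called in the data, far more than were changed in the simulation. These shares may therefore not carry over to the data.

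Alternatives were other scalings (RLE, library totals, and a lowess trend on transcript length with a span of 0.3), no filter, DESeq2, a replicate block and leaving out each library. The members and lists were chosen with earlier results of these data known. Genes named were HMOX1, members past the threshold in any contrast, the 3 with the smallest p in each structural class, the 5 highest and 5 lowest per kilobase, and in each other list up to 6 past the threshold or else the 2 with the smallest p.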

Additional observations from a re-analysis of the deposited data

Results flagged for a closer look

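The following genes responded differently to the siRNAs, by the edgeR test of HMOX1si2 minus HMOX1si1. MRPL34 differed by -1.45 (edgeR adjusted p = 0.0331) and MRPS10 by -0.51 (edgeR adjusted p = 0.0345), each with higher values under HMOX1si1. Among genes that work with the mitochondrial ribosome, RPUSD4 differed by 0.88 (edgeR adjusted p = 0.0326) and TFAM by 0.89 (edgeR adjusted p = 0.0430), each with lower values under HMOX1si1. The epithelial keratin KRT8 differed by 0.65 (edgeR adjusted p = 0.0264), with 5853 and 6295 CPM with HMOX1si2, against 3981 and 3772 CPM with HMOX1si1. All are log2 differences with 2 libraries a group, in which the libraries of HMOX1si2 and HMOX1si1 did not overlap.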

How the results depend on the processing

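In edgeR 3 genes were called with HMOX1si1, 3 with HMOX1si2, 4 on average and 2 between the siRNAs. DESeq2 called 13, 6, 13 and 4. Scaling by library totals gave 1 (higher) with HMOX1si1 and 1 with HMOX1si2. Scaling by transcript length gave 5 with HMOX1si1, where 11.1% of all genes were called, and 5 between the siRNAs, where 5.16% were. Of the 12 gene calls, DESeq2 kept 12, RLE 12, no filter 11, transcript length 9 and library totals 7. Calls changed when 1 library was left out, where a lone library is assumed to vary like the other groups. With the replicate number as a block 0 genes were called in each of the 4 comparisons, with 20, 12, 20 and 6 at an unadjusted p under 0.05. Whether the numbers pair the libraries is not known. Deviations of same-numbered libraries had correlations of -0.153 (HMOX1si1 with HMOX1si2), 0.00791 (HMOX1si1 with siControl) and 0.0272 (HMOX1si2 with siControl). With 2 libraries a group, these values cannot show whether same-numbered libraries were handled together. With the numbers of HMOX1si2 crossed, a replicate block added after the data were seen, 0 genes were called between the siRNAs and 7 had an unadjusted p under 0.05. The shares of all genes under library totals and in the block fits are not given, so these counts have no background. Of the fold changes and medians recomputed, 283 kept their sign and their side of the threshold, 96 kept their sign and lost the call and 11 gained one. The median of the 78 genes kept its sign under all settings except between the siRNAs without HMOX1si2 replicate 2 (-0.05), and with HMOX1si2 it was -0.10 without HMOX1si2 replicate 1. The median of the small-subunit proteins acquired in mitochondria changed sign under scaling by transcript length (0.01, from -0.14 without it). MRPL34 on average was 0.18 and lay between -0.067 (without siControl replicate 2) and 0.49 when 1 library was left out. The cause was not tested for any of these. With 2 libraries a group, the standard errors of 0.07 to 0.42 on average among the genes named limit what single genes can show, though the lowest count of the 78 genes was 158.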
